A study of Arabidopsis thaliana with 4 samples.

Results

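The 3732 tiles described here carry IDs of the TA series with a plate number of 61 or higher. They were picked by these IDs and by having a value in every column of the deposited table, out of 21707 tiles with a value in all. A tile is a feature of the array that stands for 1 stretch of genomic DNA, and its ID gives a series, a plate, a row (A to H) and a column. The set spans plates 61 to 99, which are 39 plates of 96 wells, and 12 of its 3744 wells had no value. Of those 12, 6 were in plate 86, 4 in plate 88, and plates 64 and 74 lacked 1 each. The cut at plate 61 was drawn past plates with low ratios, though not at a sharp edge, so the levels themselves helped to choose the set. Levels and calls are therefore given as a description and not as a test of the set.

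Acetylation of lysine 56 of histone H3 (H3K56ac) was profiled by ChIP-chip, in which DNA from a chromatin immunoprecipitation is hybridised to a tiling array, in untreated Arabidopsis thaliana seedlings of the Col-0 ecotype. Seedlings labelled as 10 days old had been grown in liquid medium at 22 °C under 16 hours of light a day. Immunoprecipitated (IP) DNA was compared with input DNA, the chromatin before immunoprecipitation, on the same array. The antibody is labelled H3K56Ac, from Upstate, and the DNA was amplified and labelled directly with Cy3 and Cy5. Chromatin preparations I and II, called replicates 1 and 2 here, were each hybridised to a pair of arrays with the dyes swapped, which makes 4 arrays. Whole seedlings were used, so fewer cells with the mark and less of the mark per cell cannot be told apart.

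Lysine 56 lies on the core of histone H3, close to where DNA enters and leaves the nucleosome. In budding yeast the acetylation is placed on newly made H3 by Rtt109 with the histone chaperone Asf1, and it accompanies nucleosome assembly behind the replication fork and turnover of nucleosomes at active promoters. In plants the mark has been associated with transcribed chromatin. Tile IDs were not paired with positions, genes or sequences in the sources used here, so no tile is placed on the genome and no sequence is printed.

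The columns of both arrays of a dye swap were the same at every tile. Each preparation therefore counts as 1 sample (n = 2), and precision is limited by this number. The values are log ratios whose base and numerator are not given, and a difference of 1 is called 1 log unit. Since it is not known whether IP or input is on top, "higher" and "lower" refer to the deposited ratio and not to the amount of the mark. The median over all 21707 tiles was taken off each replicate, so a value of 0 means the level of the middle tile of the array and does not mean absence of the mark. Across the 3732 tiles, which share the same arrays, replicates 1 and 2 correlated with r = 0.903 (Pearson) and rho = 0.852 (Spearman). The SD of their difference was 0.259 log units, against 0.271 across the 9577 TB tiles. The sign of the centred ratio differed between replicates at 611 tiles of the set (16.4%), against 1560 TB tiles (16.3%).

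The TA tiles from plate 61 onward sat close to the array median, with a tail of high tiles and few very low ones. Their median was −0.0103 log units in replicate 1 and −0.00701 in replicate 2. The middle of the distribution was narrow, from −0.29 at the 25th percentile of the replicate mean to 0.41 at the 75th, and the tails were unequal. Its 5th percentile was −0.61 and its 95th 1.25. Skewness was 0.910, against 0.649 in the TB tiles. High tiles thus lay farther from the middle than low tiles did in this set.

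A tile was called above or below the array median when limma's test of its mean against 0, fitted on all 21707 tiles, gave a Benjamini-Hochberg adjusted p under 0.05. By that rule 1151 of the 3732 tiles (30.8%) were above, where 33.3% of all tiles were above. Another 978 (26.2%) were below, where 30.9% of all tiles were below, and 1603 (43.0%) were not called. Replicates 1 and 2 disagreed in sign at 3 of the called tiles. The smallest absolute mean that was called was 0.281 log units, and the variance was pooled so strongly over tiles that a call was close to a fixed cutoff at that distance. The set's split of calls, 54.1% of them above, rested on the zero point. A test against a log2 of 1.5 (treat) called 416 above and 21 below. The share above was 7.34% with the ratios as deposited, whose median over all tiles was −0.84, and 88.2% after centring on the mode of each replicate, which put the median of all tiles at 0.26.

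In the set 333 tiles (8.92%) stood at least 1 log unit above the median, where 10.4% of all tiles lay that high. The 8.92% became 0.831% as deposited and 14.9% with centring on the mode. In both replicates separately 279 of them reached that distance (7.48%), where 8.56% of all tiles did. Only 10 tiles (0.268%) lay 1 log unit or more below the median, where 3.07% of all tiles did, and 8 of these 10 were that low in both replicates. The low stretches elsewhere in the TA and TC series enter that background.

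The TB series has 9577 tiles on 100 plates with medians of no less than −0.16. Set against it, the TA tiles from plate 61 were lower at each percentile compared, from the 5th to the 95th. The far low tail went the other way, since 0.268% of TA tiles lay 1 log unit or more below the array median, against 0.355% in TB. Medians were −0.0103 in replicate 1 and −0.00701 in replicate 2 for the TA tiles, against 0.202 and 0.162 for the TB tiles. The difference of medians, TA minus TB, was −0.19 ± 0.0306 log units (mean ± SD over the 2 replicates), negative in both. It was −0.11 ± 0.00562 at the 5th percentile, −0.14 ± 0.00855 at the 25th, −0.23 ± 0.0381 at the 75th and −0.14 ± 0.0437 at the 95th. All these differences were larger than the SD between replicates, which covers the 2 preparations only. The one at the 75th percentile was the largest of the 5 in each replicate. Levels helped to choose the set and TB has no low stretch. The sign of these differences follows in part from that choice, so they are only a description. With 2 preparations an exact two-sided sign-flip test cannot go below p = 0.5, so none was run. Among TA tiles from plate 61 there were 0.85 tiles called below for each tile called above, against 0.389 in TB.

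**Figure D1:**
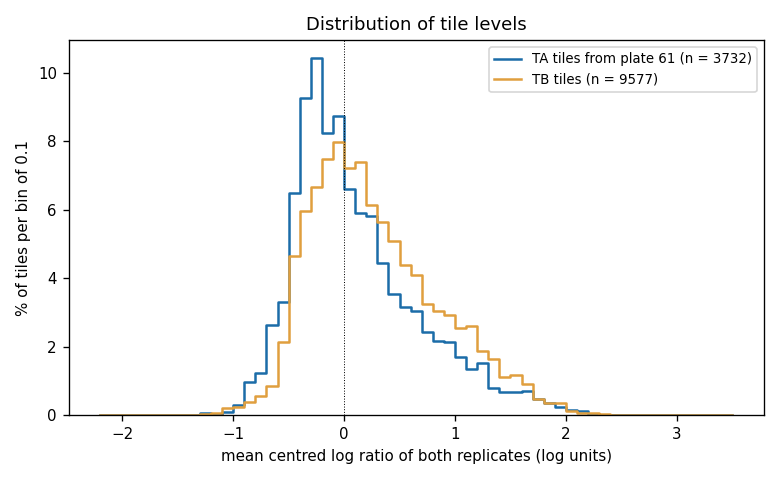
Share of tiles (% per bin of 0.1 log units) by mean centred log ratio of both replicates, for the 3732 TA tiles from plate 61 (blue) and the 9577 TB tiles (orange). The TA curve peaks lower, and 21.9% of TA tiles lie at 0.5 or more, against 31.2% of TB tiles.

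Other parts of the array without a low stretch stood higher as well. They were picked for lacking such a stretch, so their higher level follows in part from that choice and is only a description. The 1912 tiles of TA plates 1 to 20 had medians of 0.116 and 0.129 in replicates 1 and 2. The median of TA tiles from plate 61 was lower than that by 0.13 log units (TA from plate 61 minus TA 1 to 20, −0.13 ± 0.00654, SD, n = 2). For the 1282 tiles of TC plates up to 13 the difference of medians was −0.26 ± 0.0350, and it was negative in both replicates.

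Later plates of the set, taken in groups of 13, had higher levels than the first ones, but the last plates fell back. The first 13 plates, 61 to 73, had tile medians of −0.0855 log units (replicate 1) and −0.109 (replicate 2). Plates 74 to 86 had medians of 0.00891 and 0.0312, and plates 87 to 99 of 0.0601 and 0.0719. The 3 groups of 13 plates stood in the same order in both replicates. The steps between them were larger than the SD between replicates, which was 0.0164, 0.0157 and 0.00839 in the 3 groups. That SD covers the 2 preparations and not the scatter of plates, whose medians had an SD of 0.169 over the set. Plate medians overlapped, from −0.36 to 0.076, from −0.20 to 0.53 and from −0.084 to 0.24 in the 3 groups. At the end of the set, plates 95, 97, 98 and 99 had medians of −0.032, −0.084, −0.026 and −0.039. Plate 96, among them, had 0.056. The set was cut shortly after plates with low ratios, so a low start may come from the cut. The rise was not tested. Tiles called above made up 24.1% of plates 61 to 73, 33.3% of plates 74 to 86 and 35.2% of plates 87 to 99. For tiles called below the shares were 32.8%, 23.1% and 22.7%. The 75th percentile was 0.27, 0.44 and 0.51 in the 3 groups in that order, and the 25th was −0.36, −0.27 and −0.26.

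A line through the 39 plate medians rose by 0.0586 log units per 10 plates, with 0.0523 in replicate 1 and 0.0612 in replicate 2. Pearson r between plate number and plate median was 0.395 and Spearman rho 0.463 over 39 plates, which share 1 set of arrays. The slope was not even along the set. It was 0.194 per 10 plates over plates 61 to 79 and 0.00918 over plates 80 to 99, where the replicates differed in sign (0.0120 and −0.0120). Without the last 5 plates it was 0.0955, more than 1.5 times the value over all 39. Plate 75, the highest, lowered the slope slightly, since it was 0.0645 without that plate. Plate medians of TB over the same plate numbers rose by 0.0384 per 10 plates, with 0.0235 in replicate 1 and 0.0514 in replicate 2. The lower of the TA slopes, 0.0523, was thus close to the higher of the TB slopes, 0.0514, and this difference was not tested. Over all 100 TB plates the slope was 0.0182. A plate number in TA and the same number in TB need not stand for related DNA.

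**Figure D2:**
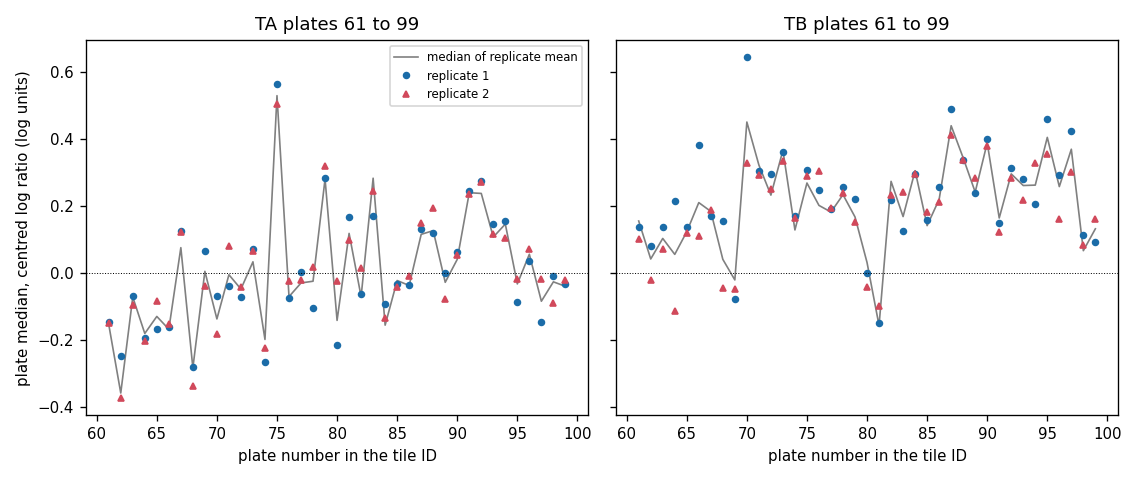
Median centred log ratio of each plate (log units) against plate number, for TA plates 61 to 99 on the left and TB plates 61 to 99 on the right. Circles are replicate 1, triangles replicate 2, and the grey line is the median of the replicate mean. TA plates run from −0.36 in plate 62 to 0.53 in plate 75 and zigzag up to plate 85, and 37 of the 39 TB plates lie above 0.

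Single plates varied more than the trend. The median of the replicate mean ran from −0.36 in plate 62 to 0.53 in plate 75, with an SD over the 39 plates of 0.169 log units, against 0.132 over TB plates 61 to 99. The 2 replicates of a plate typically differed far less, with a median SD of 0.0301, and their plate medians correlated at 0.918 over the 39 plates. Both replicates put 14 TA plates above the array median and 19 below it, against 33 above and 2 below among TB plates 61 to 99.

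Plate 75 had the highest median, at 0.565 in replicate 1 and 0.507 in replicate 2. In it 69 of 96 tiles (71.9%) were called above and 5 below. Plates 83, 79, 91 and 92 followed, all between 0.24 and 0.28 in the median of the replicate mean. By replicate plate 83 lay at 0.170 and 0.247, plate 79 at 0.283 and 0.322, plate 91 at 0.244 and 0.235 and plate 92 at 0.274 and 0.272. Each of these 5 plates was above the array median in both replicates, and plates 91 and 92 are neighbours in the ID order.

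At the low end plate 62 had medians of −0.248 in replicate 1 and −0.375 in replicate 2, with 52 of 96 tiles (54.2%) called below and 13 above. Plate 68 lay at −0.281 and −0.337, with 48 of its 96 tiles called below, and plate 74 at −0.266 and −0.223. Plates 64 and 66 came next at −0.195 and −0.204 and at −0.161 and −0.151. All 5 lay below the array median in both replicates, and 4 of them belong to the first 13 plates. The edge of the set itself was not sharp. Plate 61, the first inside, had a median of −0.15, while plate 60, the last outside, stood at 0.13 and plates 59 and 58 at −0.31 and −0.57.

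From plate 61 to plate 85 the plate medians went up and down with odd and even plate numbers, a pattern picked out after the medians had been seen. Of the 11 odd plates in that stretch with a neighbour on both sides, 10 stood above both even neighbours, and the same count was found in replicate 1 and in replicate 2. None of the 12 even plates stood above both odd neighbours in either replicate. The mean of plate medians was higher in the 13 odd than in the 12 even plates by 0.231 log units in replicate 1 and 0.216 in replicate 2. From plate 86 on, 1 of 6 odd plates and 4 of 6 even plates stood above both neighbours. The limit at plate 85 was set on these same medians, so the contrast between the stretches follows in part from that choice. For the same reason neither replicate is a separate check of it. Over the whole set, plates 61 to 99, the counts were 12 of 18 odd and 4 of 19 even plates. Replicate 2 alone gave 10 odd and 3 even plates. In TB plates 61 to 99 the replicate mean gave 6 of 18 odd and 7 of 19 even plates. Plate medians of TA from plate 61 accordingly correlated at −0.065 with the next plate (38 pairs) and at 0.375 with the next plate but one (37 pairs). Setting replicate 1 against replicate 2 gave −0.043 and 0.351 at these distances. Within plates 61 to 85 every row from A to H had a higher median in odd than in even plates, which the choice of that stretch favours. At the seams in that stretch, the median of row A was below that of row H of the plate before at 6 of 12 changes to an even plate, and above it at 7 of 12 changes to an odd plate.

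**Figure D3:**
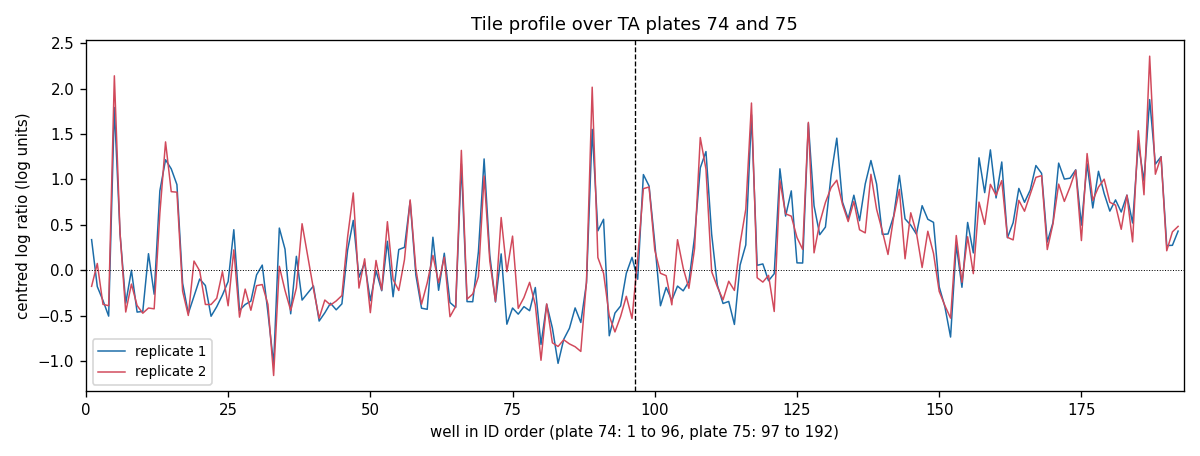
Centred log ratio (log units) of each tile over TA plates 74 and 75 in ID order, with replicate 1 in blue and replicate 2 in red; the dashed line marks the change of plate. Both replicates follow each other closely, most tiles of plate 74 lie below 0 between short peaks, and plate 75 is mostly above 0 from its row C on.

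Within plate 75 the high level was not uniform. Rows A and B had medians of 0.048 and −0.023, with 4 and 3 of 12 tiles called above. In row D and in row F all 12 tiles were called above, with medians of 0.64 and 0.85, and rows G and H had 11 each. Row E, between D and F, had a median of 0.34 and 7 tiles called above.

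High tiles lay next to each other in the ID order. After a tile called above, the next tile was called above in 60.2% of cases, against 17.6% after a tile that was not. In TB these shares were 65.1% and 26.1%. There were 461 runs of high tiles, on average 2.50 tiles long with a median of 2, against 2.85 in the 1438 runs of TB. Single tiles made up 38.6% of the runs in TA from plate 61 and 31.8% in TB, and runs of 5 tiles or more held 35.2% of the high tiles, against 40.2% in TB. Run length grows with the share of tiles called, which was 30.8% and 42.8%, so these lengths are not a comparison at equal share. The mean length in TA was 1.27 with ratios as deposited and 3.24 with centring on the mode. At 1 log unit or more above the median the runs had a mean length of 1.35 tiles, against 1.43 in TB, and the longest had 7 tiles, against 5 in TB.

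**Figure D4:**
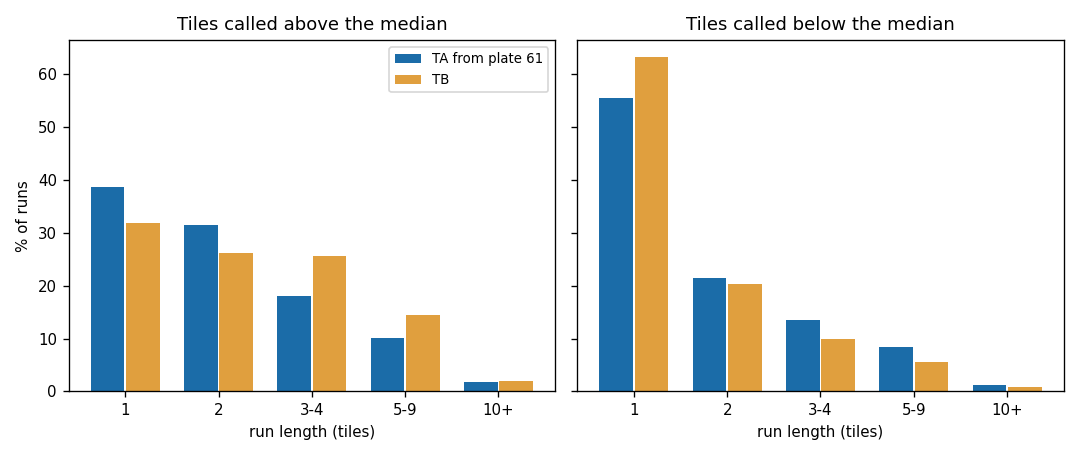
Share of runs (%) by run length in tiles, for runs of consecutive tiles called above (left) and called below (right) the array median, with TA from plate 61 in blue and TB in orange. Among runs called above, TA has more runs of 1 or 2 tiles and fewer of 3 to 9; among runs called below it has fewer single tiles, 55.4% against 63.2%.

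The longest run of high tiles had 23 tiles, from TA75C07 to TA75E05, and its median was 0.596 (replicate 1) and 0.535 (replicate 2). The second, TA75G02 to TA75H09, had 20 tiles with medians of 0.992 and 0.872. The third, TA87F09 to TA87H03, had 19 tiles with medians of 1.07 and 1.24 and was flanked by tiles at −0.20 and −0.31. All tiles of these 3 runs were above the array median in both replicates, which the call nearly ensures. There were 8 runs of 10 tiles or more, which held 123 high tiles, and 55 of these tiles in 3 runs came from plate 75. The others lay in plates 69, 87, 88, 89 and 91, 1 run in each. The run in plate 88, TA88B03 to TA88C07, had 17 tiles, and the next tile with a value stood at 0.63. A missing well ended that run, so its full length and its rank are not known. TB had 28 such runs among its 9577 tiles, the longest of 30 tiles.

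The 2 longest runs of tiles at 1 log unit or more above the median lay in plates 88 and 87. As a share of tiles that high, plate 75 came first with 19.8%, and plates 88 and 87 had 19.6% and 16.7%. The run of 7 tiles went from TA88B06 to TA88B12 and had medians of 1.46 and 1.52 in the 2 replicates. The next, of 5 tiles, went from TA87G08 to TA87G12 with 1.39 and 1.32, and 4 tiles from TA87G02 to TA87G05 stood at 1.60 and 1.48. Runs of 4 tiles also lay in other plates. They included TA94C11 to TA94D02 at 1.60 and 1.38, and TA96F07 to TA96F10, which was higher at 1.77 and 2.03. The runs in plate 87 were both parts of the run of 19. Plate 88 also had the widest spread of the 39 plates, with an interquartile range of 1.08 log units, while plate 68, at 0.429, had the narrowest.

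The highest tile of the set was TA71G07, at 2.25 in replicate 1 and 2.36 in replicate 2, between tiles at 1.17 and 1.42. TA84H03 came next at 2.26 and 2.10, with 1.41 before it and −0.54 after it. TA83A08 lay at 1.83 and 2.53 and had the largest spread of the 5 highest, with an SD of 0.493. TA92E05, at 2.04 and 2.29, was flanked by tiles at −0.34 and 0.53, and TA75H07, at 1.88 and 2.36, by tiles at 0.91 and 1.11. High tiles thus occurred both inside runs and next to tiles below the median. Over all tiles of the array TA71G07 ranked 15 from the top.

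The 978 tiles called below fell into 462 runs, on average 2.12 tiles long, and 55.4% of these runs were single tiles. In TB, with a smaller share of tiles called below, the mean length was 1.80. In TA the length followed the zero point, at 7.22 tiles with ratios as deposited and 1.66 with centring on the mode. The longest low run, TA84A12 to TA84C08, had 21 tiles. Its medians were −0.745 and −0.637 in the 2 replicates, and its highest tile lay at −0.29. It lay in the same plate as TA84H03, the second highest tile of the set.

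The lowest tile was TA84F04, at −2.25 in replicate 1 and −1.95 in replicate 2, between tiles at −0.24 and −0.49. It ranked 7 from the bottom over all 21707 tiles. TA94B04 followed at −2.04 and −1.75, rank 8, between tiles at −0.90 and −0.36. TA88E02 lay at −1.46 and −1.25, TA62G05 at −1.30 and −1.24 and TA85H03 at −1.12 and −1.39. The neighbours of TA85H03 stood at −0.0068 and −0.032, near the array median. All 10 tiles at 1 log unit or more below the median stood alone, with no other such tile beside it. In TB 34 such tiles formed 24 runs, of which 21 were single tiles and the longest had 5.

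Isolated low tiles, called below while the tile before and the tile after were both called above, numbered 17 in the set. They were 1.74% of its tiles called below, against 55 tiles or 3.45% in TB. Counted over tiles that had a high neighbour on both sides, 17 of 509 (3.34%) were called below in TA from plate 61, against 2.54% of 2162 in TB, while 407 were called above in TA, against 1682 in TB. The mirror image, a tile called above between a pair called below, was found 10 times in the set and 12 times in TB. These were 0.869% and 0.293% of the tiles called above. More tiles were called below in the set, 26.2% against 16.7% in TB, so these are not shares at an equal rate of low calls. All 17 isolated low tiles were below the median in both replicates, which the call nearly ensures. None reached 1 log unit below it, and their means lay between −0.53 and −0.29. The count depended on the zero point. It was 7 with ratios as deposited, of which 1 was among the 17, and 2 with centring on the mode, of which none was. A cutoff of 0.5 log units in place of the call left 1 of the 17.

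Their gap to the mean of both neighbours had a median of −1.17 log units. It was largest at TA95E02, which lay at −0.251 in replicate 1 and −0.486 in replicate 2 between tiles at 1.64 and 1.36, a gap of −1.87 ± 0.284 (SD, n = 2). TA95H02 lay at −0.490 and −0.571 with a gap of −1.61 ± 0.0695, and TA98C02 at −0.380 and −0.462 with a gap of −1.44 ± 0.345. The rule selects for large gaps, so their size is a description. The following gaps were −1.41 at TA71H03, −1.36 at TA71E06, −1.33 at TA92E08 and −1.30 at TA98F01. TA94D03, TA83F08 and TA85A05 completed the first 10 with −1.25, −1.17 and −1.01. TA94D03 came right after a run of 4 tiles at 1 log unit or more above the median.

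**Figure D5:**
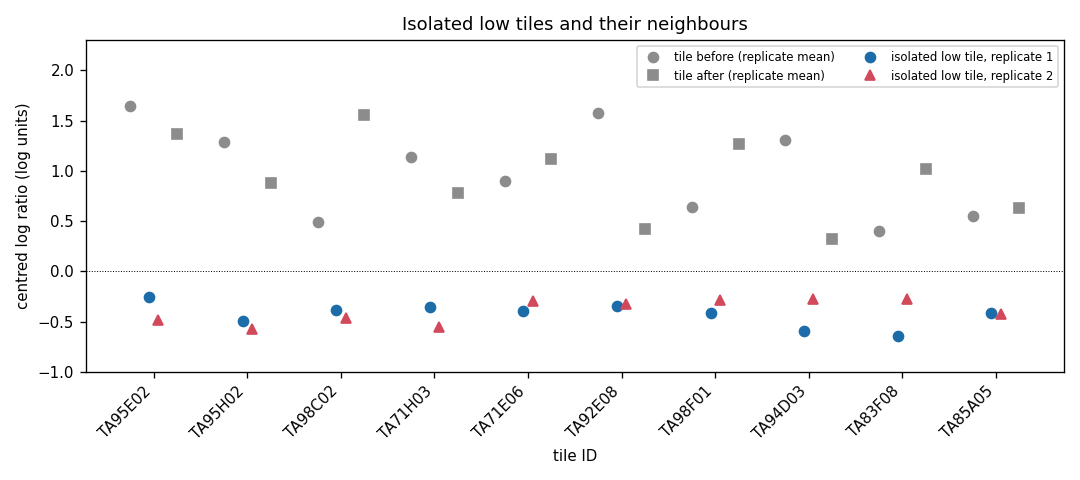
The 10 isolated low tiles with the largest gap: centred log ratio (log units) of the tile in replicate 1 (blue circles) and replicate 2 (red triangles), and of the tile before (grey circles) and after (grey squares) as replicate means. All 10 tiles lie below 0 in both replicates and every neighbour lies above 0.3, much as the rule that selected them requires.

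A count that does not depend on the zero point gave 15 tiles of the set (0.405%) at 1 log unit or more below both neighbours, against 55 TB tiles (0.577%). In both replicates 11 of the 15 met it. Only 7 of the 15 were called below, since 7 were not called and 1, TA92E06 at 0.68 and 0.39, was itself called above between tiles at 2.16 and 1.57. Tiles at 1 log unit or more above both neighbours were more frequent, with 65 in the set (1.75%) against 151 in TB (1.58%). Single-tile peaks thus outnumbered single-tile dips in both.

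Similarity of neighbours faded over a few tiles. The correlation of the mean ratio between tiles 1 apart was 0.504 over 3719 pairs, with 0.264 at 2 tiles, 0.126 at 5 and 0.0212 at 20. In TB the values were 0.468, 0.204, 0.0989 and 0.0123. With plate medians taken off, TA gave 0.466, 0.207 and 0.0585 at 1, 2 and 5 tiles, against 0.452, 0.178 and 0.0702 in TB. Replicate 1 of a tile set against replicate 2 of its neighbour gave 0.469 in TA and 0.429 in TB. The correlation across a change of plate was 0.648 (37 pairs), against 0.500 within rows. In TB it was 0.374 (98 pairs), against 0.470 within rows. The median absolute step between neighbours was larger at changes of plate than within rows in both, at 0.344 and 0.277 log units in TA and at 0.408 and 0.314 in TB. All tiles come from the same 2 preparations, so these correlations are descriptions.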

How the data were processed

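H3K56ac IP and input DNA of 2 chromatin preparations were measured on 4 two-colour arrays. The deposited table holds log ratios made by the authors, with 1 column per array and 21800 rows, of which 93 had no value. Log base, numerator, background correction and normalization are not given in the sources at hand. Column medians as deposited were −0.737 and −0.925. The identical columns of a swap were averaged to 1 value per preparation, and each replicate was centred on its median over 21707 tiles. A dye effect cannot be computed from identical columns. The labels do not say whether both preparations came from separate cultures, so the calls cover the spread between these 2, which may be technical.

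Tiles were tested with limma, version 3.58.1 under R 4.3.3 (intercept model, moderated by eBayes, 1 residual degree of freedom, prior SD 0.184 with 134 prior degrees of freedom), adjusted over all tiles. The fit was also run on simulated tiles, drawn independently of each other with variances from the fitted model. That checks the code and not the calls made here. The order of tiles, by plate and then by well, was set with Python 3.11.15, and a missing well ended a run. Tiles were named by rule: the 5 highest and 5 lowest called, the ends of the 3 longest high runs and the longest low run, the 10 isolated low tiles with the largest gap, and the 5 highest and 5 lowest plates. Other tiles named were picked after their values were seen, as were the odd and even plates, the counts against both neighbours, the tiles shared between settings and the rows of plate 75. The members and lists were chosen with earlier results of these data known. Alternatives covered centring, scaling, the variance model, the size of change, the definition of high and low, single replicates and the range of plates.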

Additional observations from a re-analysis of the deposited data

How the results depend on the processing

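Counts moved with the zero point and with the size of change asked for. With values as deposited 230 tiles of the set were above and 2904 below, the median was −0.85, 0.831% of tiles lay 1 log unit or more above 0, high runs had a mean length of 1.27 tiles and 7 low tiles were isolated. Centred on the mode these were 1732 and 231 tiles, 0.249, 14.9%, 3.24 tiles and 2. The treat test, with a limit of 0.585 log units (1.5-fold if the base is 2), called 416 above and 21 below. With 0.5 log units in place of the call the run length was 2.05 and 1 tile was isolated. The slope per 10 plates, 0.0586 in the main analysis, was 0.0485 without plate 62, 0.0955 over plates 61 to 94 and 0.00918 over plates 80 to 99, alternatives chosen after seeing the data. The median difference from TB was −0.22 against TB tiles from plate 61 alone. Leaving out 1 replicate, with calls set at the smallest called distance, gave 1176 to 1178 tiles above, 1014 to 1038 below, medians from −0.0103 to −0.00701, differences from TB of −0.21 to −0.17, slopes of 0.0523 to 0.0612, shares of 8.92% to 9.59%, run lengths of 2.33 to 2.56 and 12 to 22 isolated tiles, 10 of them among the 17 in either case. Scaling and robust eBayes changed no count by over 1.5 times. Of 20 named tiles none changed sign. The 10 isolated low tiles were no longer called with centring on the mode. Without replicate 1, TA94D03 and TA83F08 fell short of the smallest called distance, at −0.274 and −0.273. TA95E02, the tile with the largest gap, fell short of it without replicate 2, at −0.251. The fits to 1 dye orientation, the filter for tiles on all arrays and the filter on thinly filled plates were not run, because swapped columns are identical and neither filter removes anything. Without 1 replicate no residual degrees of freedom remain, so those values have no test.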

Other observations

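Isolated low tiles were spread over 12 of the 39 plates, with 3 each in plates 95 and 98. Of the 17, 9 lay in plates 87 to 99, 5 in plates 61 to 73 and 3 in plates 74 to 86. By well column, 4 of the 17 were in column 2, and 3 of these 4 were in plate 95 (TA95A02, TA95E02 and TA95H02). In that plate the 8 tiles of column 2 had a median of −0.26, between 0.51 in column 1 and 0.60 in column 3, and 1 of them, TA95D02, stood at 1.19. Column 2 was not alone at that level, since columns 5 and 6 had medians of −0.22 and −0.28. These positions were noticed after the values were seen and were not tested.

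Over all 39 plates the median by row ran from −0.10 in row B to 0.037 in row C, and by column from −0.072 in column 5 to 0.025 in column 6. In TB the rows ran from 0.159 to 0.190 and the columns from 0.128 in column 9 to 0.215 in column 12.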
